A study of Mus musculus with 7 samples.

Results

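The miRNA cluster that encodes miR-183, miR-182 and miR-96 was measured by small RNA sequencing in 7 libraries of pooled mouse hippocampus, and its 5 listed mature products were mmu-miR-183, mmu-miR-183*, mmu-miR-96, mmu-miR-182 and mmu-miR-182* (written below without the prefix for mouse). They were chosen by name and by their place on chromosome 6, and are 5 of the 756 distinct mature sequences with a read in any library. By their labels, library 1 is an untrained wildtype group (the non-trained control) and library 2 an untrained NIPP1* group, and libraries 3, 4 and 5 are trained wildtype (trained control) and libraries 6 and 7 trained NIPP1*. All are adult C57BL/6 mice of 3 to 5 months.

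NIPP1* is a fragment of the nuclear inhibitor of protein phosphatase 1 (PP1) fused to EGFP and expressed from a tetO promoter in mice that also carry the rtTA2 activator under the CaMKIIalpha promoter, so that doxycycline in the food turns it on in forebrain neurons. The hippocampus holds other cells as well, and fewer cells of a type and less RNA per cell cannot be told apart in such tissue. Controls were littermates, trained mice were exposed to objects in an object recognition task, and non-trained mice were not. How mice were divided among libraries is not given in the sources used here, so the spread between libraries of one group may be partly technical. Both non-trained groups are 1 library.

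A miRNA cluster is transcribed as one primary RNA, from which the Microprocessor complex cuts a hairpin for each member and Dicer then cuts out a duplex. One arm of the duplex, the main product, is usually kept on an Argonaute protein, and the other arm, marked here with a star, is mostly degraded. The main products of this cluster are best known from sensory cells such as photoreceptors and hair cells, and bases 2 to 8 of a miRNA, its seed, pair with target RNAs.

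The mature sequences are shown because the main products resemble each other in the seed, and miR-183 and miR-182 also beyond it. The sequences differ as given below. They are from RefSeq (GRCm38.p6), all 5 members matched, and capitals mark the seed.
miR-183: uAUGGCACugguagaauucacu
miR-96: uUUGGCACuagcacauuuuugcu
miR-182: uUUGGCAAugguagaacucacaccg
miR-183*: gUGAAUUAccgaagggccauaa
miR-182*: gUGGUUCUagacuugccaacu
miR-1271-5p: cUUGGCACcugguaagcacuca

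In the seed, miR-183 and miR-96 differ by A2U, miR-96 and miR-182 by C8A, and miR-183 and miR-182 by both A2U and C8A. Positions are counted from 1 at the 5′ end, and the base of the miRNA named first stands first. Aligned from the 5′ end without gaps, miR-183 and miR-182 are identical at 18 of 22 positions, with U17C and U22A as their further differences. miR-183 and miR-96 are identical at 13 of 22 positions and miR-96 and miR-182 at 12 of 23. Of the other RefSeq mature sequences in the table used, only miR-1271-5p, shown above, shares the whole seed of a member, that of miR-96, and no reads were listed for it in the 7 libraries. miR-183*, miR-182* and the 2 most abundant members, miR-183 and miR-182, shared a whole seed with no other sequence in that table.

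In NCBI37/mm9, the build of the deposited loci, the hairpins lie on the minus strand in the order Mir183, Mir96, Mir182 in the direction of transcription. Mature miR-183 covers chr6:30119711-30119732 and miR-183* chr6:30119672-30119693. miR-96 covers chr6:30119506-30119528, miR-182 chr6:30115962-30115986 and miR-182* chr6:30115923-30115943. The annotation places the cluster between genes, with the nearest, Nrf1, ending 12459 bp beyond Mir182 on the plus strand and the next, Ube2h, lying 41551 bp upstream of Mir183 on the minus strand.

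Levels are given as reads per 1000000 miRNA reads of a library (RPM). The low percentages the authors deposited are whole multiples of 1 read, which gave depths of 7285252 to 10017738 miRNA reads per library, so that 1 read was worth 0.0998 to 0.137 RPM. The intervals below are exact 95% Poisson or binomial intervals on reads, which cover counting error only and hold no spread between libraries. PCR copies of a molecule are counted as separate reads, so the intervals may be too narrow even for counting error. One limit touches every comparison of trained groups. The trained means that the authors deposited in their tables are rebuilt by libraries 6 and 7 for trained controls and by libraries 3, 4 and 5 for trained NIPP1*, the reverse of the labels (root mean square relative error of 0.0178% and 0.0227%, against 15.6% and 18.2% for the labelled libraries, over 318 miRNAs). The labels were followed throughout, and the grouping of the deposited tables is named where it changes a direction.

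All 5 products together took between 25.2 and 260 RPM, a 10.3-fold range over the libraries. The sum was 25.2 RPM in the non-trained control, 260 RPM in non-trained NIPP1*, 112 ± 117 RPM (SD, n = 3) in trained controls and 98.1 ± 102 RPM (SD, n = 2) in trained NIPP1*. In both trained groups the spread was about as large as the mean.

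miR-183 was read 98 times in the non-trained control, 952 times in non-trained NIPP1*, 204, 954 and 102 times in the trained control libraries 3, 4 and 5, and 580 and 130 times in the trained NIPP1* libraries 6 and 7. These are levels of 11.0, 118, 24.9, 114, 13.05, 79.6 and 12.98 RPM in libraries 1 to 7. Libraries 2, 4 and 6, which come from 3 different groups, were all at or above 79.6 RPM, and the other 4 libraries at or below 24.9 RPM. The trained groups overlapped, each holding both a high and a low library.

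miR-182 followed the same order among the high libraries, with 115, 1075, 274, 986, 119, 597 and 112 reads in libraries 1 to 7. Its levels were 12.9, 133, 33.4, 118, 15.2, 81.9 and 11.2 RPM. Library 2 was the highest for both miR-183 and miR-182, while the lowest was library 1 for miR-183 and library 7 for miR-182, and the counting intervals of libraries 1 and 7 overlap for each of them.

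miR-96, the middle hairpin, was the least abundant of the main products at 11, 61, 20, 94, 8, 52 and 14 reads in libraries 1 to 7, or 1.24, 7.56, 2.44, 11.3, 1.02, 7.14 and 1.40 RPM. Its highest level was in library 4 of the trained controls and not in library 2, and the libraries above 7 RPM were again 2, 4 and 6. With 8 to 14 reads in libraries 1, 5 and 7, differences between those libraries were not detectable at this depth.

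**Figure D1:**
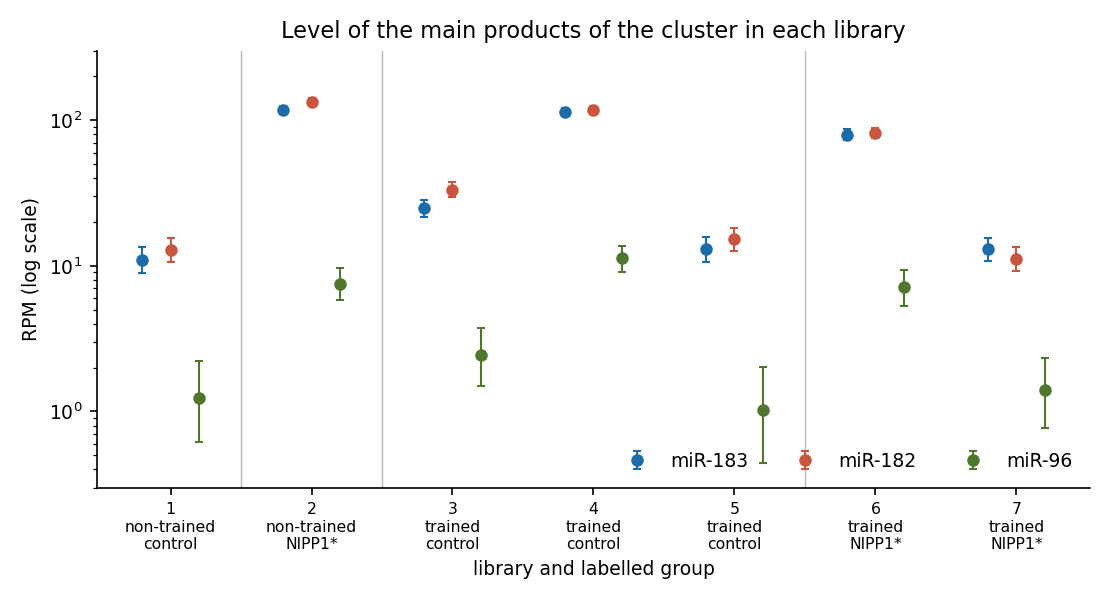
Level of miR-183, miR-182 and miR-96 in each of the 7 libraries (RPM, log axis), with exact 95% Poisson intervals for counting error and grey lines between the labelled groups. Libraries 2, 4 and 6 stand above the others for all 3 miRNAs, so that a high and a low library share each trained group.

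miR-183*, from the other arm of the miR-183 hairpin, had 33 reads in all, namely 0, 11, 1, 11, 0, 9 and 1 in libraries 1 to 7. It took 1.14% of the reads of its hairpin in library 2 (interval 0.57% to 2.03%), 1.14% in library 4 (0.57% to 2.03%) and 1.53% in library 6 (0.70% to 2.88%). In library 1 it had 0 of 98 reads, which allows a share of up to 3.06% by a floor of 3 counts (exact upper limit 3.69%), and in library 5 it had 0 of 102 reads, which allows up to 2.94% by this floor (exact upper limit 3.55%). Libraries 3 and 7 each had 1 read, a share of 0.49% (interval 0.012% to 2.69%) and 0.76% (0.019% to 4.18%). The 31 reads in libraries 2, 4 and 6 thus came where miR-183 was high, and no difference in the arm share between libraries was detectable at this depth.

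miR-182* had 10 reads in all, at 0, 1, 0, 4, 0, 3 and 2 reads in libraries 1 to 7. Its share of the reads of the miR-182 hairpin was 0.093% in library 2 (interval 0.0024% to 0.52%), 0.40% in library 4 (0.11% to 1.03%), 0.50% in library 6 (0.10% to 1.45%) and 1.75% in library 7 (0.21% to 6.19%). Libraries 1, 3 and 5 had 0 of 115, 0 of 274 and 0 of 119 reads, which allows up to 2.61%, 1.09% and 2.52% by the floor of 3 counts (exact upper limits 3.16%, 1.34% and 3.05%). The arm share of library 7 rests on 2 reads, and its interval overlaps those of the other libraries. No read of the other arm of the miR-96 hairpin was listed.

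Over all libraries, 1.08% of the reads of the miR-183 hairpin (interval 0.75% to 1.51%) and 0.30% of those of the miR-182 hairpin (0.15% to 0.56%) came from the weaker arm. The main arm had 91.5 reads for each read of the other arm at miR-183 and 328 at miR-182. Among 229 hairpins with both arms named and on average 10 or more reads in total, the weaker arm took a median of 3.14% (quartiles 0.65% and 12.3%). The share was lower than that of miR-183 at 71 of them and lower than that of miR-182 at 37. Both hairpins of the cluster were thus on the side of strong preference for one arm, without standing at its end.

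The proportions of the main products changed less than their sum. miR-183 took 46.0% of the reads of miR-183 and miR-182 in library 1 (interval 39.2% to 53.0%), 47.0% in library 2 (44.8% to 49.2%), 42.7% in library 3 (38.2% to 47.3%), 49.2% in library 4 (46.9% to 51.4%), 46.2% in library 5 (39.4% to 53.0%), 49.3% in library 6 (46.4% to 52.2%) and 53.7% in library 7 (47.2% to 60.1%). The lowest share, in library 3, and the highest, in library 7, have counting intervals that just touch. miR-96 took between 2.92% of the reads of the main products in library 2 (interval 2.24% to 3.74%) and 5.47% in library 7 (3.02% to 9.01%). In library 4, where miR-96 was highest, its share was 4.62% (interval 3.75% to 5.63%), and this interval does not overlap that of library 2. These shares moved by less than 2-fold, beside the 10.3-fold range of the sum. Among pairs of main products the widest change was that of miR-96 to miR-182, whose log2 ratio on the log2(RPM + 0.5) scale ranged from -4.05 to -2.62.

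**Figure D2:**
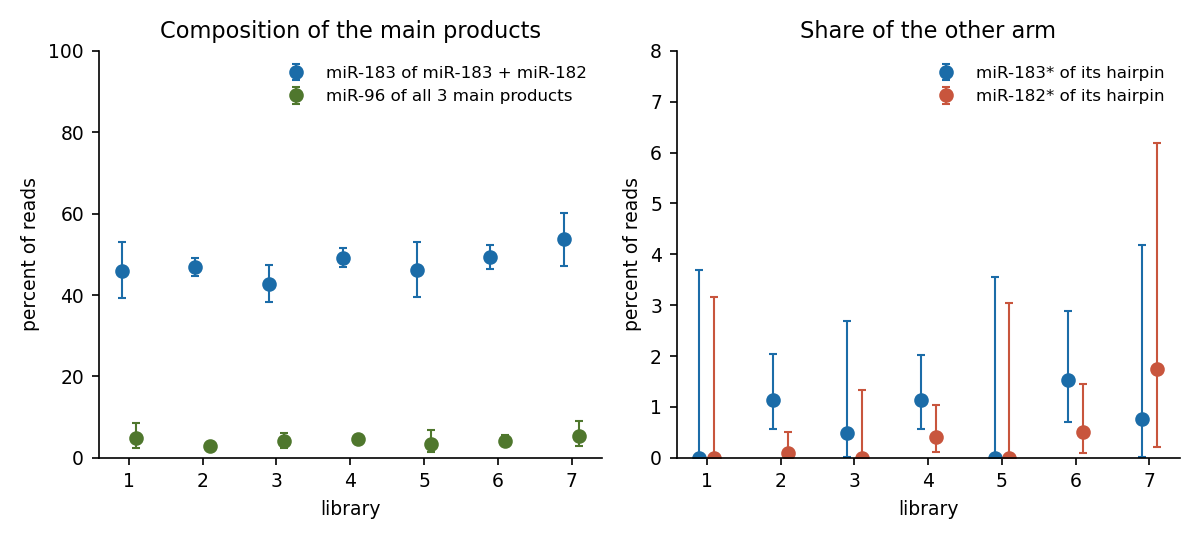
Left, share of miR-183 in the reads of miR-183 and miR-182, and of miR-96 in the reads of all 3 main products (percent), in libraries 1 to 7. Right, share of miR-183* and miR-182* in the reads of their hairpins (percent), with exact 95% binomial intervals in both panels. The composition stayed between 42.7% and 53.7% for miR-183, and the wide intervals of the arm shares overlap between libraries.

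Co-variation over the 7 libraries was measured on log2(RPM + 0.5). Pearson's r was 0.99 for miR-183 and miR-182 (Spearman's rho 0.96), 0.99 for miR-183 and miR-96 (rho 0.86) and 0.97 for miR-96 and miR-182 (rho 0.82). These are descriptions without a test: the points share libraries and depth, and a gap between 4 low and 3 high libraries carries much of each r, with too few libraries on either side of it to give r there. Without libraries 2 and 4, the farthest from the median, r was 0.98, 0.99 and 0.96, and then library 6 alone stood above the gap. The log2 level had an SD of 1.53 for both miR-183 and miR-182 and of 1.22 for miR-96, whereas the SD of the log2 ratio of miR-183 to miR-182 was 0.20. It was 0.38 for miR-183 to miR-96 and 0.45 for miR-96 to miR-182.

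miR-183* also followed its main product, with r of 0.98 and rho of 0.94 on 33 reads. For miR-182*, with 10 reads, r to miR-182 was 0.61 and rho 0.41, from which nothing can be read. Beside the cluster, r to miR-183 over the 473 other tested miRNAs (a mean of at least 10 reads) had a median of 0.03, with 90% of them between -0.45 and 0.57, and 0 of 473 reached 0.9.

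The 10 miRNAs with the highest r to miR-183 were miR-106b* (0.89), miR-155 (0.88), miR-301a* (0.80), miR-412-3p (0.79), miR-331-5p (0.76), miR-410 (0.75), miR-770-5p (0.73), miR-668 (0.70), miR-3093-3p (0.70) and miR-200b* (0.69). Their changes were much smaller. miR-106b*, which ranked the libraries as miR-183 did (rho 1), ranged over 0.25 on the log2 scale, from 43.9 to 52.3 RPM, where miR-183 ranged over 3.36. miR-155 ranged over 0.65 on that scale, and miR-200b*, the widest of the 10, over 2.26 from 6 to 45 reads. Without libraries 2 and 4, r to miR-183 was 0.80 for miR-106b* and 0.66 for miR-155.

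**Figure D3:**
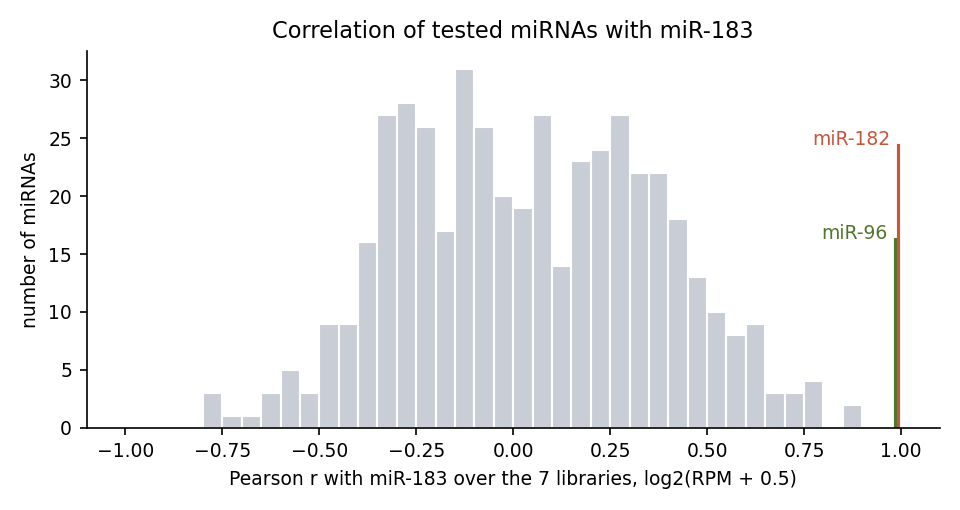
Number of tested miRNAs (bars) by Pearson's r of their log2(RPM + 0.5) with that of miR-183 over the 7 libraries, with miR-182 and miR-96 drawn as lines. The 473 other miRNAs lie between -0.80 and 0.89, and both members lie to their right.

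Other clusters of the genome give a scale for this. Between tested miRNAs of different hairpins on one strand within 10 kb of each other, 722 pairs without members of the cluster had a median r of 0.28, and 21 of them (2.91%) had r of at least 0.9. The highest, 0.99, was that of miR-34b-5p and miR-34c. In the 22 pairs in which both miRNAs ranged over at least 1 on the log2 scale, the median r was 0.82. An r as high as that of the members thus occurred between neighbouring miRNAs of another cluster as well.

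The nearest tested miRNAs on chromosome 6 had low r to the cluster. miR-335-5p, 572 kb away on the plus strand, ranged over 0.43 on the log2 scale, with r to miR-183 of -0.14. miR-29a, 893 kb away on the same strand as the cluster, ranged over 0.23 with r of 0.21. Levels of miR-29a were between 103200 and 120800 RPM in the 7 libraries.

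The spread between libraries of one group was among the widest of all miRNAs. The residual SD of the 4-group model on log2(RPM + 0.5) was 1.67 for miR-183, while miR-182 had 1.66 and miR-96 had 1.48, against a median of 0.20 over 476 miRNAs. By this measure miR-183 ranked 3, miR-182 ranked 4 and miR-96 ranked 7 of 476. The ranks do not depend on which trained group carries which label, since the same libraries stay together under both groupings.

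**Figure D4:**
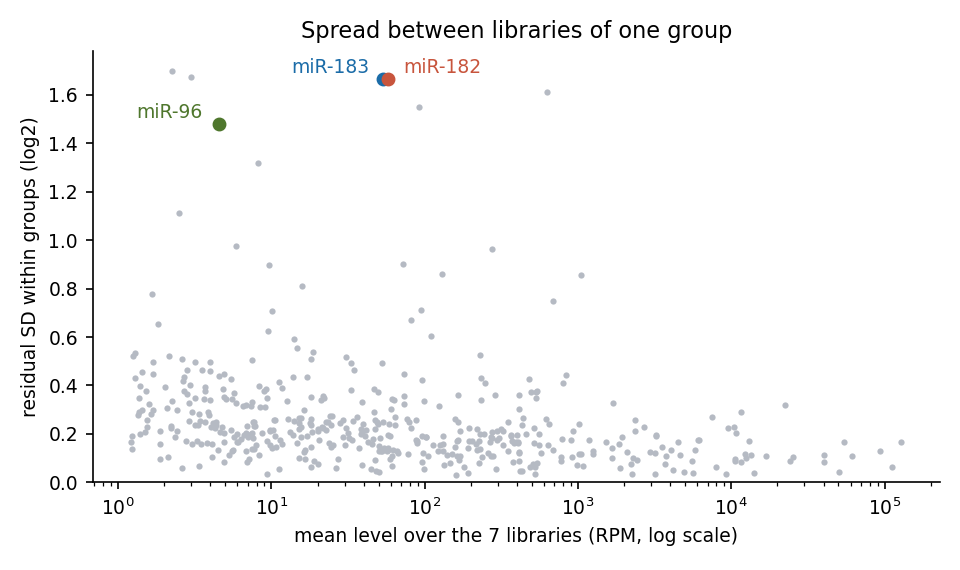
Residual SD between libraries of one group (log2 scale) against mean level (RPM, log axis) for 476 tested miRNAs (grey points), with the 3 main products of the cluster in colour. Their values of 1.48 to 1.67 stand far above the median of 0.20.

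The first comparison asks whether NIPP1* expression by itself goes with another level of the cluster. In the non-trained NIPP1* library, miR-183 was 10.7-fold and miR-182 10.3-fold the level of the non-trained control library, and miR-96 was 6.11-fold. The log2 ratios of RPM were 3.42 (interval 3.12 to 3.73), 3.36 (3.09 to 3.65) and 2.61 (1.67 to 3.69). miR-183* had 11 reads against 0, for which the exact lower limit of the log2 ratio was 1.47, and miR-182*, with 1 read against 0, allows no fold. All 3 members with a mean of at least 10 reads passed a log2 ratio of 1 upward. By the ratio of RPM without a pseudocount, 7 of 476 miRNAs (1.47%) passed it upward and 12 (2.52%) in either direction, and the other 4 that passed upward had ratios of 1.03 to 1.19 on at most 28 reads in library 1. On the log2(RPM + 0.5) scale, 3 of 476 (0.63%), the members, passed it upward and 7 (1.47%) in either direction. With 1 library in each group no test of this comparison was run, and the intervals compare these libraries and not the conditions.

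The same ratio between libraries of one group shows the spread to set beside it. From library 5 to library 4, both labelled trained control, miR-183 differed by a log2 ratio of 3.13 in size, miR-182 by 2.96 and miR-96 by 3.46. From library 3 to library 4, the log2 ratios were 2.20, 1.82 and 2.21. Libraries 3 and 5 differed by 0.93, 1.13 and 1.25 in size. In the trained NIPP1* group, libraries 6 and 7 differed by 2.62 at miR-183, by 2.87 at miR-182 and by 2.35 at miR-96. For miR-96, the ratio between libraries 4 and 5 was larger than that between the non-trained libraries. For miR-183 and miR-182, the largest ratio within a group was smaller than that between the non-trained libraries, and their counting intervals overlap.

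**Figure D5:**
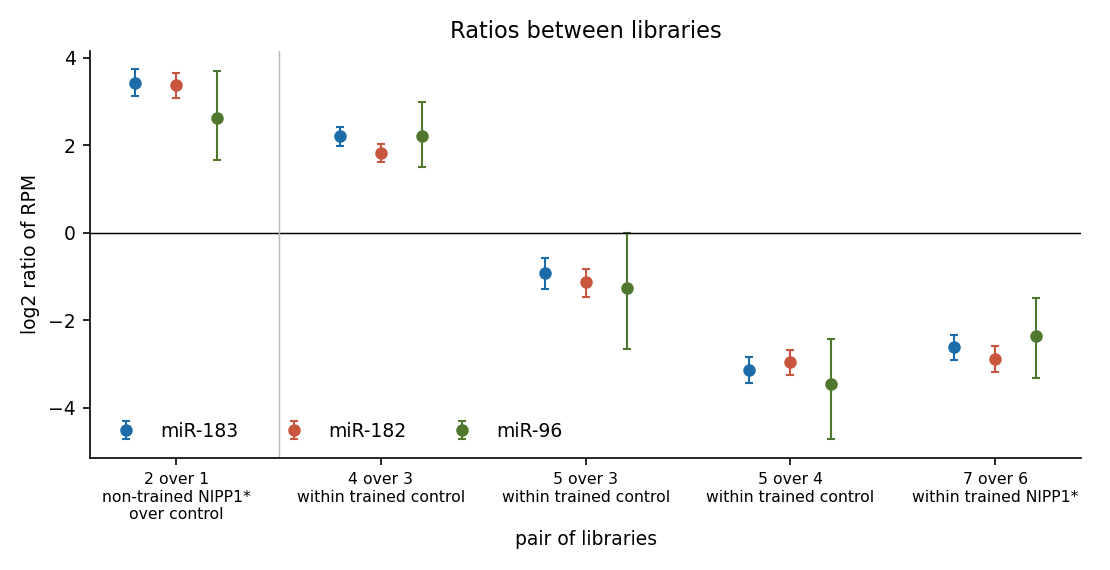
Log2 ratio of RPM between 2 libraries for miR-183, miR-182 and miR-96, with exact 95% counting intervals. The pair of non-trained libraries is left of the grey line and the 4 pairs of libraries of one labelled group are right of it. For miR-183, the ratio of the non-trained libraries (3.42) stands beside sizes of 0.93 to 3.13 within groups.

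The second comparison asks whether training goes with another level in controls. The trained control level of miR-183 averaged 50.7 ± 55.3 RPM (SD, n = 3), beside 11.0 RPM in the 1 non-trained control library, and that of miR-182 averaged 55.6 ± 54.9 RPM (SD, n = 3), beside 12.9 RPM. All 3 trained control libraries were above the non-trained control for both, although the counting intervals of libraries 5 and 1 overlap for each. The share of all miRNAs with such an order is not given here. Under the grouping of the deposited tables, library 7 counts as a trained control, and its 11.2 RPM of miR-182 is below the non-trained control. For miR-96, 2 of 3 were above it. On the log2(RPM + 0.5) scale miR-183 differed by 1.56 (standard error 1.28), miR-182 by 1.57 (standard error 1.28) and miR-96 by 1.11 (standard error 1.15). The limma adjusted p was 0.712, 0.712 and 0.740. By limma, 0 of 476 miRNAs (0%) were called at an adjusted p under 0.05, with 28 at an unadjusted p under 0.05. DESeq2 called 1, which was not a member, and edgeR 0. Without library 4 the differences of miR-183, miR-182 and miR-96 were 0.69, 0.78 and 0.28, and without library 5 they were 2.23, 2.24 and 1.76. Of the 476 miRNAs, 2 had a larger positive difference than miR-183, with miR-182 among them, and the median standard error over all miRNAs was 0.26.

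The third comparison is that of the trained genotypes. miR-183 was at 46.3 ± 47.1 RPM (SD, n = 2) in trained NIPP1* and 50.7 ± 55.3 RPM (SD, n = 3) in trained controls. On the log2 scale miR-183 differed by -0.051 (standard error 1.01), miR-182 by -0.36 (standard error 1.01) and miR-96 by 0.025 (standard error 0.91), with limma adjusted p of 0.990, 0.951 and 0.995. Limma called 0 of 476 miRNAs (0%), with 34 at an unadjusted p under 0.05, DESeq2 called 1, which was not a member, and edgeR 0. By construction, the sign of these differences turns under the grouping of the deposited tables, which exchanges the trained groups. It also turns with single libraries, since miR-183 was at -1.34 without library 6 and 1.23 without library 7.

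The fourth comparison is that of training in NIPP1* mice. Both trained NIPP1* libraries were below the 118 RPM of miR-183 in the non-trained NIPP1* library, and likewise for miR-182 and miR-96, although for miR-96 the counting intervals of libraries 6 and 2 overlap. Here too, the share of all miRNAs with such an order is not given. Under the grouping of the deposited tables, library 4 counts as trained NIPP1*, and its 11.3 RPM of miR-96 is above the 7.56 RPM of library 2. The log2 value for miR-183 was -1.85 (standard error 1.36), that for miR-182 -2.11 (standard error 1.36) and that for miR-96 -1.08 (standard error 1.22). The limma adjusted p was 0.973 for miR-183 and miR-182 and 0.976 for miR-96. Limma called 0 of 476 miRNAs (0%), with 21 at an unadjusted p under 0.05. DESeq2 called 2, neither a member, and edgeR 0. Without library 7 the differences were -0.56, -0.70 and -0.08, and without library 6 they were -3.13, -3.52 and -2.08.

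The last comparison sets the training effect in NIPP1* against that in controls, as a difference of log2 differences. It came to -3.41 at miR-183 (standard error 1.87), -3.68 at miR-182 (standard error 1.87) and -2.19 at miR-96 (standard error 1.68). The limma adjusted p was 0.720, 0.717 and 0.831. Without library 7 these values were -2.13, -2.27 and -1.18, and without library 6 they were -4.70, -5.09 and -3.19. Limma called 0 of 476 miRNAs (0%), with 37 at an unadjusted p under 0.05, DESeq2 called 2, neither a member, and edgeR 0. Only 1 of 476 miRNAs, miR-182 itself, had a lower value than miR-183. The value rests on both single non-trained libraries, which were the lowest and the highest of the 7 for miR-183. The comparisons share libraries, so they do not bear on each other independently.

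The arm ratios of the cluster could be tested only with a minimum mean of 1 read in both arms, which 214 hairpins passed. For miR-183 the log2 ratio of main to other arm differed by 0.84 for training in controls (standard error 0.58) and for miR-182 by 1.24 (standard error 1.08), with limma adjusted p of 0.778 and 0.798. The lowest limma adjusted p over the 4 comparisons was 0.688 for both hairpins, in training of NIPP1* mice. In each comparison 0 of these 214 hairpins (0%) were called. With 10 reads in both arms, where 147 hairpins remained without those of the cluster, limma again called 0 (0%) in each, with 9 to 11 at an unadjusted p under 0.05. The pseudocount of 0.5 RPM was larger than the level of miR-182* in every library and than that of miR-183* in libraries 1, 3, 5 and 7, so there these ratios follow the main arm, and the read shares given above are the direct measure.

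Lists of miRNAs of the tissue and of other cells were set beside the cluster, and none of their tested miRNAs was called by limma. DESeq2 called 1 of them, miR-146a of the leukocyte and microglia list, with a log2 fold change of -1.08 for training in NIPP1* mice (DESeq2 adjusted p = 0.0209). Neuronal miRNAs abundant in hippocampus, among them miR-124 and miR-9, were all measured (10 of 10), none was at 0 in any library, and their sum was 233619 RPM in the non-trained control, 219214 RPM in non-trained NIPP1*, 200941 to 228890 RPM in trained controls and 214081 and 215801 RPM in trained NIPP1*. Their median log2 difference between the non-trained libraries was -0.07, beside 0.02 for all 476 miRNAs. For the lists described below, this median was -0.81 for red blood cell miRNAs, -0.47 for the neuroendocrine list and -0.43 for the miR-200 family. It was -0.29 for the oligodendrocyte list and 0.37 for the leukocyte and microglia list. For the choroid plexus, retinal and hindbrain lists it was 0.19, 0.43 and 0.11.

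Of the miRNAs of choroid plexus and of the Htr2c gene, 6 of 7 were measured, with miR-211 at 0 to 2 reads. Their sum was 1363 RPM in the non-trained control and 1677 RPM in non-trained NIPP1*, 571 to 2727 RPM in trained controls and 759 and 1992 RPM in trained NIPP1*. The highest sum was in library 3, where the cluster was low, and library 4, where it was high, had 899 RPM. Over the libraries r to miR-183 was 0.34 (rho 0.36, and 0.61 without libraries 2 and 4). The retinal light-regulated list, which was measured for 2 of 2 and shares miR-204 and miR-211 with it, moved likewise, from 400 RPM in library 5 to 1154 RPM in library 3.

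The miR-200 family, known from epithelia, was measured for 5 of 5. Its sum was 237 RPM in the non-trained control, 161 RPM in non-trained NIPP1*, 112 to 314 RPM in trained controls and 116 and 356 RPM in trained NIPP1*. miR-200c had 4, 8, 4, 94, 13, 36 and 10 reads in libraries 1 to 7, and miR-141 had 8, 6, 2, 62, 2, 34 and 15. Both were high in libraries 4 and 6 along with the cluster, but in library 2, where miR-183 and miR-182 peaked, they were at 8 and 6 reads. With the cluster they were among the 7 miRNAs of widest range over the libraries, together with miR-448-3p and miR-1298 of the choroid plexus list.

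Red blood cell miRNAs (2 of 3 measured, miR-144 and miR-451) were highest in library 7, at 251 RPM, where the cluster was low. They were at 116 RPM in the non-trained control, 85.0 RPM in non-trained NIPP1*, 61.9 to 126 RPM in trained controls and 132 RPM in library 6. Sums of the oligodendrocyte list (4 of 4) ranged from 3263 to 5458 RPM, those of the leukocyte and microglia list (5 of 5) from 808 to 1312 RPM, and those of the neuroendocrine list (3 of 3) from 7532 to 14200 RPM. The hindbrain and spinal cord list (4 of 4, with miR-196a and miR-196b at 0 in some libraries) was at 26.6 to 48.0 RPM. None of these 4 sums changed by more than 1.89-fold over the libraries, beside 10.3-fold for the cluster. Other lists changed more, with 4.77-fold for the choroid plexus list and 4.05-fold for red blood cell miRNAs. The sum of the miR-200 family changed 3.19-fold and that of the retinal list 2.88-fold. The part of other cell types in the levels of the cluster was not tested.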

How the data were processed

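Small RNA libraries were made from total RNA of hippocampus, and the authors kept inserts of 19 to 26 nt. They mapped them with Bowtie through ncPRO-seq to NCBI37/mm9 (submitters' notes also name CASAVA 1.7.0 and bedtools). The authors deposited the percent of a library's miRNA reads for each mature locus. The deposited signal in 3 tables is the authors' mean of reads divided by size factors, used here for names and groupings only. The authors' fold changes and p-values, in all 4 tables, were not used, nor were 2 columns of values per library.

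Of 806 loci, copies of one sequence were joined. Whole reads were recovered from percentages: 100% of values up to 100 reads came out whole, within 0.05 read or the rounding. limma 3.58.1 with a trend was fitted in R 4.3.3 to log2(RPM + 0.5) of all 7 libraries and 4 groups, for miRNAs averaging 10 or more reads, and p-values were adjusted by Benjamini-Hochberg. It takes the single non-trained libraries to vary like the trained ones, and this scale understates changes of low miRNAs. The test was checked on simulated data with the same spread setting for all miRNAs, so the check does not cover miRNAs as variable as the members. edgeR 4.0.16 and DESeq2 1.42.0 on recovered reads, other scalings, filters and pseudocounts, and leaving out each trained library were alternatives. Intervals used scipy 1.17.1 under Python 3.11.15.

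Members, lists and tests were chosen with earlier results of these data known. Named were the members, miRNAs that share a member's seed, the 10 with the highest r to miR-183, and list members where a count needed them. The pairs of other clusters, the neighbours on chromosome 6 and the miRNAs of widest range were added after values were seen.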

Additional observations from a re-analysis of the deposited data

Results flagged for a closer look

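miR-183 and miR-182 were flagged because every library moved in opposite directions with training in the 2 genotypes, as labelled. All 3 trained control libraries were above the non-trained control, and both trained NIPP1* libraries were below the non-trained NIPP1* library. The share of all 476 tested miRNAs with this pattern is not given here, so the pattern is a description only. For miR-183, library 1 was the lowest and library 2 the highest of the 7. Both directions would thus hold for it whichever of the other libraries were called trained control or trained NIPP1*. The training effect in NIPP1* minus that in control was -3.41 for miR-183 and -3.68 for miR-182 on the log2 scale. The limma test of this difference gave an adjusted p of 0.720 and 0.717, so it was not called. Each direction is read against 1 library. The counting intervals of libraries 5 and 1 overlap for both miRNAs, and under the grouping of the deposited tables library 7, at 11.2 RPM of miR-182, is lower than library 1 at 12.9 RPM.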

How the results depend on the processing

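No paired analysis was possible, because the groups are of different mice and the labels link no libraries across them. The grouping of the deposited tables exchanges the trained genotypes, so the sign of their difference turns under it by construction. For the trained genotypes, the log2 difference thus turned its sign, to 0.051 at miR-183, 0.36 at miR-182 and -0.025 at miR-96. For miR-96 it also turned under TMM scaling (-0.035), DESeq2 (-0.24) and edgeR (-0.33). With each trained library left out in turn it ranged from -1.34 to 1.23 for miR-183, from -1.77 to 1.05 for miR-182 and from -0.98 to 1.03 for miR-96. For training in controls, the log2 fold changes of miR-183, miR-182 and miR-96 were 2.28, 2.18 and 2.06 by DESeq2 and 2.28, 2.19 and 2.07 by edgeR, larger than by limma. By DESeq2 and edgeR, miR-182 was at -1.47 and -1.50 for training in NIPP1*, and miR-96 at -2.85 and -2.92 for the training effect in NIPP1* minus that in control. The other 148 member values, these included, kept their direction and stayed above the threshold of the adjusted p. Counts of called miRNAs were 0 under each limma and edgeR setting, and DESeq2 called 1 miRNA for training in controls, 1 between trained genotypes, 2 for training in NIPP1* and 2 for the difference of the training effect. Called arm ratios ranged from 0 to 1 between trained genotypes when a library was left out, the 1 being without library 3, and the cause was not tested. Without the pseudocount, an alternative added after seeing the data, 7 in place of 3 miRNAs passed a log2 ratio of 1 upward between the non-trained libraries and 12 in place of 7 in either direction. The members' ratios of these libraries stayed within their counting intervals, and each r between the main products moved by under 0.1, under the alternatives run. Depth limits the star arms, with 33 and 10 reads in all, and 1 library in each non-trained group limits every comparison with them.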
